A study of Mus musculus with 6 samples.

Results

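Interferon-stimulated genes are the 50 genes followed here in regulatory T cells (Treg), a list of type I and type II interferon response genes matched by symbol to the 29199 genes of the counts table. All 50 were found, and all 50 were among the 18321 genes with enough counts to be tested. Treg were recovered from the spleen of mice given a bone marrow graft, and the question asked of them was whether their transcriptome depended on the conventional CD4 T cells (Tconv) transferred beside them.

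The hosts were lethally irradiated C57BL/6 J or CD45.1+ B6 mice (B6 standing for C57BL/6) that received a mixture of B6 marrow and semi-allogeneic B6D2F1 marrow. Both groups also received expanded wild-type (WT) Treg from B6 mice carrying the Foxp3-Thy1.1 reporter, which had been expanded with beads, IL-2 (500 IU/mL) and TGF-β (0.1 ng/mL) before transfer. One group of 3 libraries, Treg with WT Tconv, came from hosts given naive Tconv of control littermates. The other group of 3 libraries, Treg with HP1α KO Tconv, came from hosts given naive Tconv of Hp1a-/- mice, in which a floxed allele had been excised by CMV-cre in every tissue on a mixed 129/Sv and C57BL/6 background. The Treg themselves were WT in both groups, donor mice were 6 to 12 weeks old, and Treg were sorted 3 weeks after the graft as CD4+ cells that carried Thy1.1, CD45.2 and H-2Kb and lacked CD45.1 and H-2Kd. The libraries are called WT 1 to 3 and KO 1 to 3 after the genotype of the Tconv, not of the Treg. The labels do not say that the libraries came from separate animals, so p-values measure only the spread between these samples. In bulk RNA, fewer cells of a type and less RNA per cell cannot be told apart.

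Interferons are cytokines that switch on a shared set of genes in most cells. Type I interferon binds the IFNAR receptor and drives a complex that holds STAT2 and IRF9 to the interferon-stimulated response element (ISRE), while interferon gamma (IFN-γ), the type II interferon, binds IFNGR and acts through the gamma-activated site (GAS). The products detect viral nucleic acid, block translation or replication, and, in the case of the guanylate-binding proteins (GBP) and immunity-related GTPases (IRG), attack the vacuoles of intracellular microbes. Helper T cells of the Th1 type are a main source of IFN-γ, so Treg that reside among them can carry an interferon imprint.

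The letters of the ISRE and the GAS were searched in the promoters of these genes. Each promoter ran from 250 bases before to 50 bases after the annotated start of the gene's canonical (representative) transcript. The GRCm39 genome and the GENCODE M39 annotation were used, and other starts of the same gene were not searched. The ISRE was searched as GAAANNGAAA and its reverse complement TTTCNNTTTC, and the GAS as TTCNNNGAA, which reads the same on both strands. The ISRE letters were present in 27 of the 50 promoters (54.0%) against 3.84% of 21770 protein-coding promoters of the same length. The GAS letters were present in 13 of the 50 (26.0%) against 8.82%. Both occurred in 9 promoters and neither in 19, among them those of Igtp, Irf7, Irf9 and Oasl2. A match is a description of letters and not a measured binding site.

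The promoters of Isg15, Rsad2 and Zbp1 are shown whole, with ISRE matches in capitals, because they hold these letters and the genes stood apart in 1 or 2 libraries. Isg15 (chr4:156285254-156285553 on the minus strand) held 3 overlapping matches, Rsad2 (chr12:26506402-26506701 on the minus strand) held 1 match, and Zbp1 (chr2:173060675-173060974 on the minus strand) held 4 matches in 2 overlapping pairs, each read 5′ to 3′ along the gene.
Isg15: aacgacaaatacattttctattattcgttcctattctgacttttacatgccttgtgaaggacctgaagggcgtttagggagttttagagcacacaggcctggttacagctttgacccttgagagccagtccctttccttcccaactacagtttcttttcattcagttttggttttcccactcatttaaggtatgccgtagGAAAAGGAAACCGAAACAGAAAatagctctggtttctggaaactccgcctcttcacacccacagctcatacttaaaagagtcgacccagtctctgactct
Rsad2: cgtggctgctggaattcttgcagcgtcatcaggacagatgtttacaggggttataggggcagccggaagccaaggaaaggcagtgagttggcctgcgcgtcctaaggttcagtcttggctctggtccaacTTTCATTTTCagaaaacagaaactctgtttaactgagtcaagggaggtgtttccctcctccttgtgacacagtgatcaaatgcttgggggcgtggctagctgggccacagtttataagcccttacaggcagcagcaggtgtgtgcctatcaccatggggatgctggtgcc
Zbp1: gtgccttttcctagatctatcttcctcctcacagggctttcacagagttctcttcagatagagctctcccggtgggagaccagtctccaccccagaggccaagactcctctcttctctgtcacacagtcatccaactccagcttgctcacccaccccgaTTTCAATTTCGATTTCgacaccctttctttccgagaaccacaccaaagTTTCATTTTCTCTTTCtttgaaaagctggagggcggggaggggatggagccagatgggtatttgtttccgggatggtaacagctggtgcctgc

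Zbp1 also held 2 GAS matches, of which the one nearer the start shared 3 bases with an ISRE match. The GAS of Irf1, a factor induced by IFN-γ, is shown beside the GAS of Zbp1 that lay apart from its ISRE matches, each with 10 bases on either side and the match in capitals (chr11:53660751-53660759 on the plus strand and chr2:173060779-173060787 on the minus strand).
Irf1: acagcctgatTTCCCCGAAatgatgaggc
Zbp1: caccctttctTTCCGAGAAccacaccaaa

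The near-identical gene pairs of the list are shown by their ISRE with 10 flanking bases, because their counts rest on how ambiguous reads were shared. For Ifit3 and Ifit3b (chr19:34560807-34560816 and chr19:34585203-34585212, plus strand) the ISRE nearer the start stood 92 and 125 bases before it. For Tgtp1 and Tgtp2 (chr11:48883141-48883150 and chr11:48955100-48955109, minus strand) the single ISRE began 3 and 78 bases before the annotated starts. That of Tgtp1 ran across the start.
Ifit3: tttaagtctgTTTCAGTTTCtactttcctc
Ifit3b: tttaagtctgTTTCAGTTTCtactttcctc
Tgtp1: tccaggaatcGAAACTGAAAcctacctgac
Tgtp2: tccaggaatcGAAACCGAAAcctactctga

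Among the 10 GBP and IRG members, 7 promoters held the ISRE letters and 5 the GAS letters, and among the other 40 members 20 held the ISRE letters and 8 the GAS letters.

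The libraries held 87421755 to 119078882 estimated counts each, and the members took 0.682% to 0.868% of them. The lowest count of any member in any library was 120, for Oasl1, so no member was limited to a handful of reads. A pair of libraries stood apart in ways that touch the members. WT 3 carried a summed neutrophil marker level of 1849 CPM (counts scaled to a fixed library total) against 41.8 to 223 in the other 5 libraries, a red cell marker level of 5596 against 373 to 681, and a macrophage or monocyte marker level of 181 against 13.04 to 47.3. All 7 neutrophil, all 6 red cell and all 6 macrophage or monocyte markers had counts in at least 1 library. KO 2 carried the lowest Foxp3 at 154 CPM against 200 to 252, and the lowest Il2ra (121 against 161 to 199), Cd3e (147 against 188 to 221) and Cd4 (688 against 729 to 843), but the highest Tnfrsf18 at 578 against 391.9 to 441, with Ikzf2 and Ctla4 inside the range of the other libraries. The summed level of 7 Treg markers was 4427 to 5097 in the WT Tconv group and 4172 to 4528 in the KO Tconv group. Of these markers Ctla4 was lower in every KO library, at 1028, 1018 and 798 CPM against 1246, 1349 and 1112 (DESeq2 adjusted p 0.0414, edgeR adjusted p 0.232), and its part in the members' values was not tested. The summed level of 5 plasmacytoid dendritic cell markers, a cell type that makes type I interferon, was 56.3 to 76.1 and 56.0 to 80.6. Most of it was Bst2 (37.4 to 49.1 CPM), which also belongs to the members, and Ccr9 (9.37 to 28.7). Tcf4 was lower in every KO library, at 2.67, 2.29 and 2.88 CPM against 3.05, 4.15 and 4.42 (DESeq2 adjusted p 0.0963, edgeR adjusted p 0.248). Bst2, Ccr9, Spib and Siglech overlapped between the groups. Siglech was near the floor, with at most 7 counts (0.0728 CPM) in any library, and had too few counts to be tested.

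Every gene of the list had counts in the Treg libraries, at levels that differed widely per length of exon. How much of this RNA came from other cells was not tested. Ifi27l2a, a small mitochondrial interferon-induced protein, led with a mean of 491 CPM per kb, and its lowest library of 399 was above every library of the next gene. Irf1, a transcription factor downstream of both interferon types, followed at 164 CPM per kb with libraries from 125 to 183. Tgtp2 (85.6), Igtp (84.7), Gbp2 (83.8) and Gbp7 (79.6), all GTPases linked to IFN-γ, came next with overlapping ranges, so their order could not be told from the spread between libraries. Phf11b (70.1), the dNTP hydrolase Samhd1 (66.9) and Epsti1 (62.5) overlapped in the same way. By the longest transcript in place of all exons, Samhd1 moved up to the third place (155 CPM per kb), above all the GTPases. The lowest 4 were Oas2 at 2.20, Oasl1 at 0.970, Oasl2 at 0.952 and Ifi44 at 0.507 CPM per kb. The antiviral genes Mx1 (8.38), Ifit1 (4.48) and Rsad2 (5.98) thus stood below most GBP and IRG members, of which only Gbp5 (7.58) was as low. Rsad2 ran from 3.44 to 15.7, with its highest value in WT 3. Not every antiviral gene was low, as Bst2 stood at 34.7, above Irgm1 at 25.2. The exon model of Irf1 overlaps genes on the opposite strand over 46.0% of its length, and the sources used here do not state whether counting used strand.

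**Figure D1:**
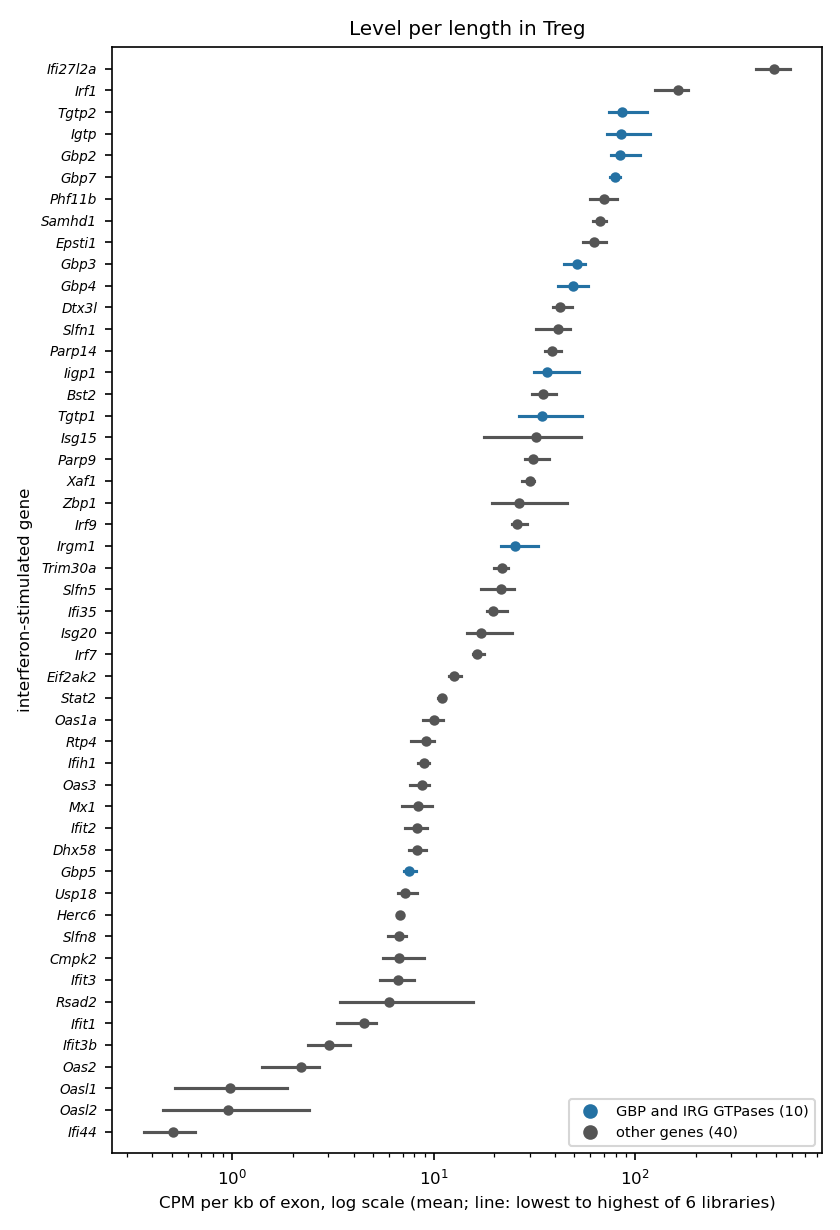
Level of each of the 50 interferon-stimulated genes in the Treg libraries, in CPM per kb of exon on a log axis. Points are means of 6 libraries and lines run from the lowest to the highest library. Ifi27l2a led at 491 and Ifi44 was lowest at 0.507, and blue points mark the GBP and IRG GTPases.

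Between the groups, no member passed an adjusted p of 0.05 in edgeR, while DESeq2 called 1 member, Isg15. DESeq2 also called 6 genes of a further interferon list, which is given below. Of the 50 members, 31 had a positive and 19 a negative log2 fold change (HP1α KO Tconv over WT Tconv), with a median of 0.03 against -0.01 over all genes tested. The median size of the difference without its sign was 0.13 on the log2 scale, against 0.17 over all genes. No member passed an adjusted p of 0.05 in edgeR's quasi-likelihood test with Benjamini-Hochberg adjustment over all genes, where the lowest adjusted p was 0.243, and the background was 0% of genes. An unadjusted p under 0.05 was reached by 5 members (10%) against 14.5% of all genes. Of these, 2 were higher with HP1α KO Tconv (Slfn1 and Phf11b), against 6.98% of all genes, and 3 were lower (Isg15, Ifit1 and Oasl1), against 7.52%. DESeq2 called 1 member, Isg15, against 4.35% of the genes it gave an adjusted p.

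Counting instead the members whose 3 CPM values in one group all lay beyond those of the other gave 7 of 50 (14%), against 23.0% of all genes. Stat2, Irf9 and Slfn1 were higher in every library with HP1α KO Tconv, where the background in that direction was 11.5%. Isg15, Ifit1, Ifih1 and Oasl1 were lower in every one, where the background was 11.6%. By these counts the share of members was not above that of all genes, a comparison that was not tested. For the unadjusted p, 3 alternatives gave the opposite order. In DESeq2 7 members had an unadjusted p under 0.05, against 9.23% of all genes with a p-value. Without the filter on low counts edgeR gave 6 members, against 9.87% of all genes with at least 1 count. Both shares take in genes of low count that the main test removed, whereas every member had at least 120 counts in every library. They therefore do not compare directly with the 14.5% of the main test. Without KO 3 the share with an unadjusted p under 0.05 was 14% of members against 10.4% of all genes. In that setting the share whose groups did not overlap was also higher, at 36% of members against 30.3% of all genes.

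**Figure D2:**
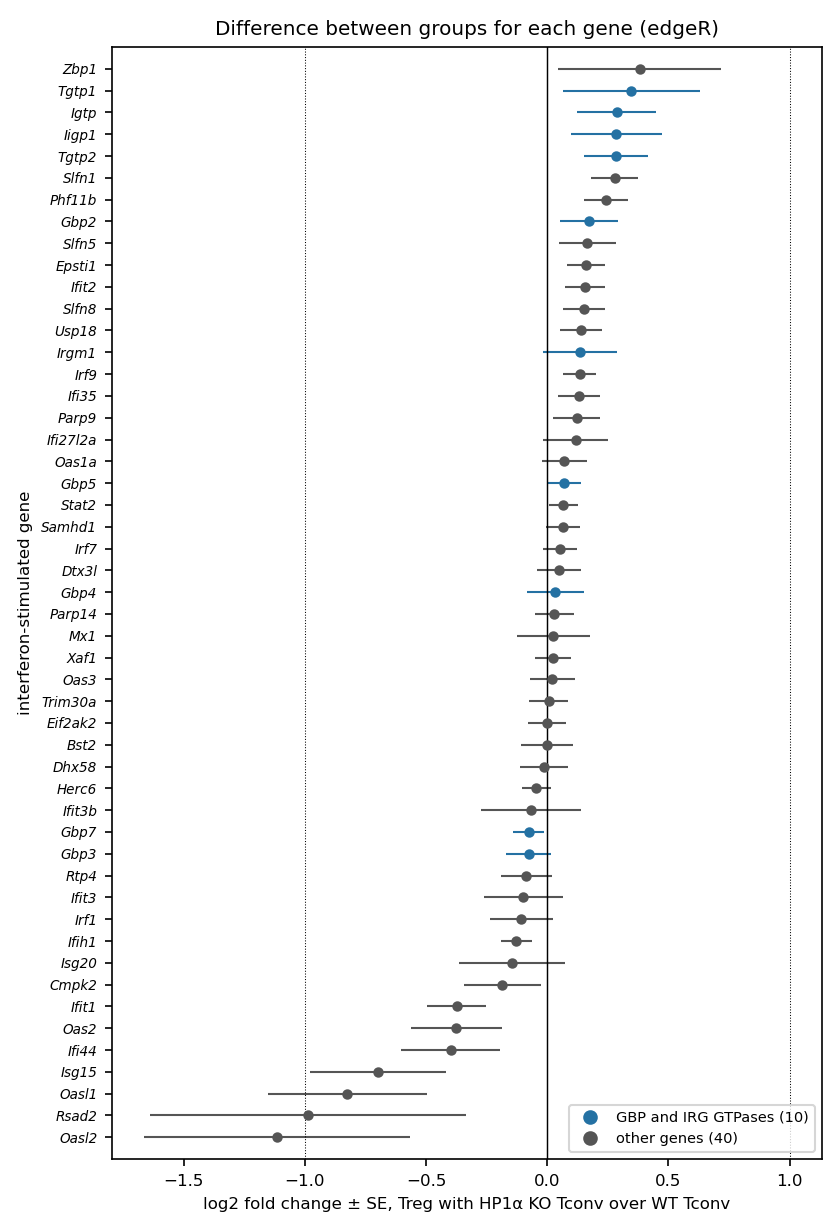
Log2 fold change of each member between the groups (HP1α KO Tconv over WT Tconv), with its standard error from edgeR (3 libraries per group); dotted lines mark a log2 fold change of 1 in either direction. Only Oasl2, at -1.11, lay beyond a dotted line, and the GBP and IRG members (blue) ran from -0.08 to 0.35.

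The mean log2 CPM over the members was 6.20 ± 0.0374 (SD, n = 3) with WT Tconv and 6.18 ± 0.124 with HP1α KO Tconv, a difference of -0.03. Scaling by total counts gave 0.01, and the same scaling moved the median log2 fold change of all genes from -0.01 to 0.03. For the 10 GBP and IRG members it was 7.69 ± 0.0471 and 7.81 ± 0.237, and for the other 40 it was 5.83 ± 0.0367 and 5.77 ± 0.0985. In all 3 sets the spread over the KO libraries exceeded the difference between the groups. The libraries behind that spread were KO 2, where 25 of the 50 members (50%) had their highest value against 21.9% of all genes, and KO 3, where 21 of the 50 had their lowest against 19.7% of all genes.

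**Figure D3:**
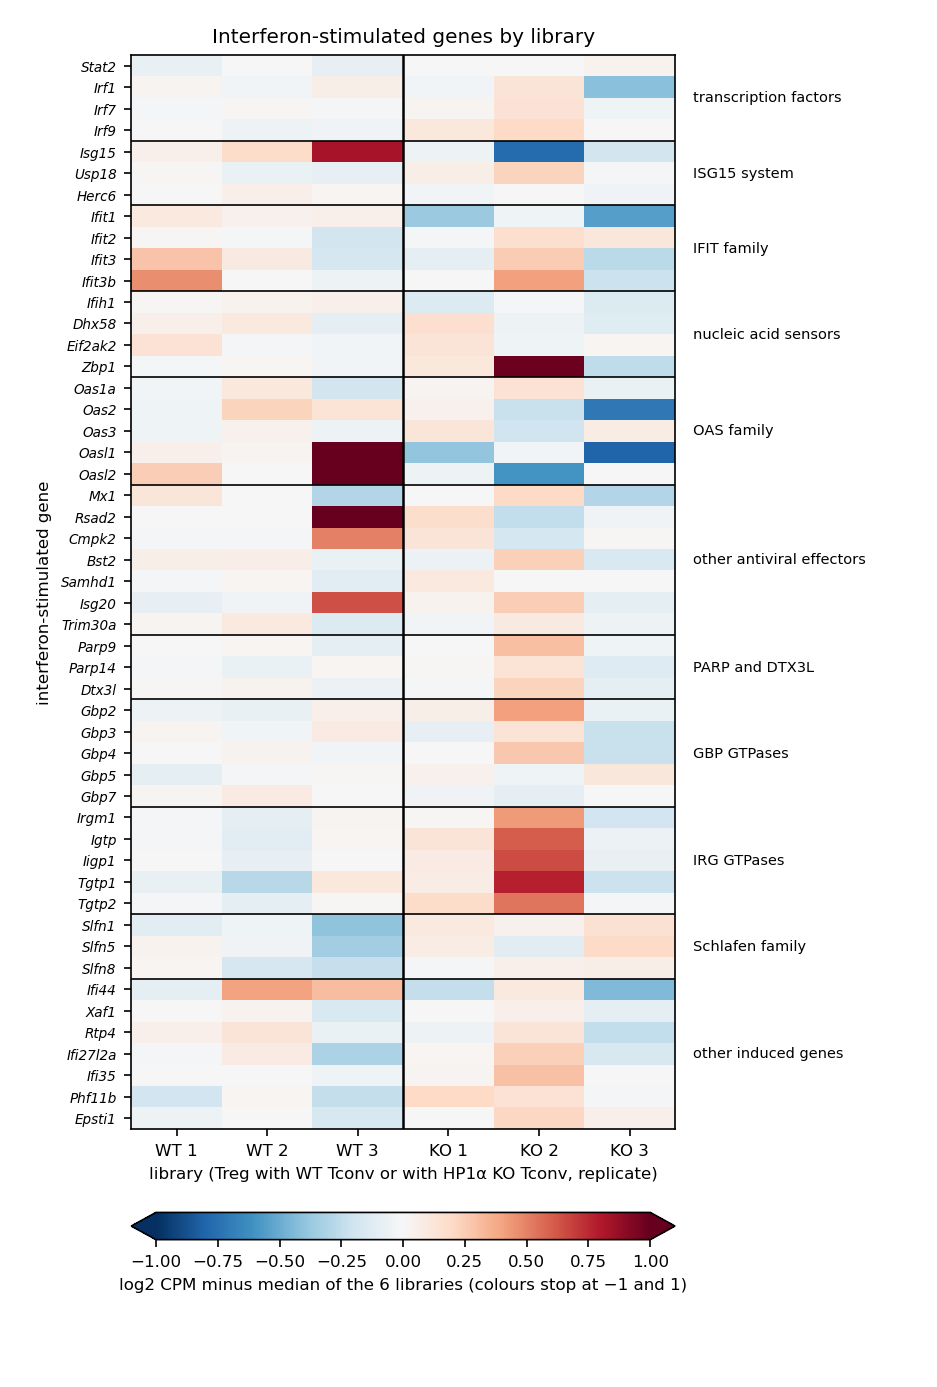
Members by library, as log2 CPM minus the gene's median over the 6 libraries, ordered by role; red is above and blue below the median, and colours stop at -1 and 1. WT 3 is red for Isg15, Oasl1, Oasl2, Rsad2, Cmpk2 and Isg20, and KO 2 is red for Zbp1 and the 5 IRG GTPases.

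Of the 4 transcription factors on the list, Stat2 and Irf9 were higher in every KO library by a small margin, and Irf1 and Irf7 overlapped. None of the 4 passed an adjusted p of 0.05 in edgeR or DESeq2. Stat2, a signal transducer of the type I response, read 66.7, 70.0 and 66.4 CPM with WT Tconv and 70.3, 70.5 and 71.9 with HP1α KO Tconv. The groups just missed each other, yet the log2 fold change was 0.07 ± 0.06 (SE) with an edgeR adjusted p of 0.648. Without WT 2 the log2 fold change of Stat2 was 0.10. Irf9, the DNA-binding subunit of that complex, read 146, 142 and 143 CPM against 158, 168 and 148, all 3 KO libraries being higher. Its log2 difference was 0.13 ± 0.07 with an edgeR adjusted p of 0.415, and without KO 2 it was 0.087. Irf7, the amplifier of type I interferon production, read 60.2, 61.4 and 60.3 CPM against 62.2, 67.3 and 59.0, and these values overlapped. Irf1 read 797, 770 and 816 CPM against 771, 856 and 587, with KO 2 the highest and KO 3 the lowest of the 6. Leaving out KO 2 and KO 3 in turn moved the log2 fold change of Irf1 from -0.11 to -0.23 and to 0.04.

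The ISG15 system held the member that DESeq2 called over all 6 libraries. Isg15 encodes a ubiquitin-like protein that is conjugated to other proteins after interferon. It read 24.6, 27.0 and 42.0 CPM with WT Tconv and 22.9, 13.95 and 20.9 with HP1α KO Tconv. The groups did not overlap, but WT 1 and KO 1 were close, WT 3 was the highest and KO 2 the lowest. The log2 fold change was -0.70 ± 0.28 with an edgeR adjusted p of 0.343, and the DESeq2 adjusted p was 0.0268. With single libraries left out, the DESeq2 adjusted p of Isg15 ran from 0.0394 without KO 1 to 0.337 without KO 2, and was 0.0572 without WT 1, 0.105 without WT 2, 0.320 without WT 3 and 0.326 without KO 3. Without WT 3 the edgeR log2 fold change was -0.42. The exon model of Isg15 overlaps a gene on the opposite strand over 31.1% of its length. Usp18, the protease that removes ISG15 and dampens IFNAR, read 23.2, 21.9 and 21.7 CPM against 23.9, 26.8 and 22.8 and overlapped. Herc6, the mouse ligase of the system, was the steadiest member, its highest library standing only 1.06-fold above its lowest.

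Among the IFIT genes of the list, whose proteins bind foreign RNA caps and ends, only Ifit1 had groups that did not overlap. Differences between these genes were not tested. Ifit1 read 38.4, 37.0 and 37.2 CPM with WT Tconv and 27.7, 34.7 and 24.5 with HP1α KO Tconv. All 3 KO libraries were lower, KO 2 being nearest the WT libraries. The log2 fold change was -0.37 ± 0.12, with an edgeR p of 0.0149 and an adjusted p of 0.243. DESeq2 did not call Ifit1 over all 6 libraries (adjusted p 0.0809) but called it without KO 2, with an adjusted p of 2.17e-06, in a setting where it called 11.3% of genes. With any other library left out its DESeq2 adjusted p was 0.229 to 0.288. Ifit2 had a log2 fold change of 0.16 and overlapping groups. Ifit3 read 22.9, 19.99 and 16.6 CPM against 17.7, 22.4 and 15.6, and Ifit3b read 7.81, 5.65 and 5.45 against 5.66, 7.51 and 4.87. Both were highest in WT 1 and KO 2, but their transcripts are 97.2% identical over 2030 bases, so their counts are not independent.

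Among the sensors of viral nucleic acid, Ifih1 (MDA5, a sensor of long double-stranded RNA) read 83.3, 84.5 and 85.2 CPM against 75.1, 81.6 and 74.9. The 3 KO libraries were all lower by a small margin, with a log2 fold change of -0.13 ± 0.06 and an edgeR adjusted p of 0.414. Without KO 2, DESeq2 called Ifih1 as well (adjusted p 0.0220), and with any other library left out its adjusted p was 0.503 to 0.620. Dhx58 (LGP2, its regulator) read 28.4, 29.4 and 25.7 CPM against 30.9, 26.5 and 25.3. Eif2ak2 (PKR, the kinase that halts translation) read 74.0, 65.9 and 65.4 CPM against 73.0, 64.7 and 67.7. Neither separated the groups. Zbp1, a sensor of Z-form nucleic acid that triggers cell death, read 98.4, 102 and 98.1 CPM against 107.4, 197 and 83.8. KO 2 alone stood high. The log2 fold change of 0.38 ± 0.34 was the highest of the list, with an edgeR adjusted p of 0.654, and without KO 2 it was -0.06.

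The OAS family and the other antiviral effectors held the members with the widest spread, which lay in WT 3. Rsad2 (viperin) read 17.6, 17.8 and 68.0 CPM with WT Tconv against 20.02, 14.9 and 17.3 with HP1α KO Tconv. Oasl2 read 5.19, 4.38 and 15.3 CPM against 4.23, 2.89 and 4.38, and Oasl1, a translational brake on Irf7, read 2.46, 2.41 and 4.85 against 1.80, 2.32 and 1.36. WT 3 stood above the median of the other 5 libraries by 3.86-fold for Rsad2, 3.50-fold for Oasl2, 2.09-fold for Oasl1, 1.83-fold for Isg15, 1.60-fold for Isg20 and 1.43-fold for Cmpk2, the neighbour of Rsad2. WT 3 had the highest value of 7 members in all, these 6 and Ifih1 (14%, against 20.0% of all genes), and the lowest value of 15 (against 20.8% of all genes).

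The log2 fold changes of Rsad2 (-0.99 ± 0.65), Oasl2 (-1.11 ± 0.55) and Oasl1 (-0.83 ± 0.33) had edgeR adjusted p-values of 0.559, 0.439 and 0.313. Without WT 3 they were -0.02, -0.32 and -0.41. Interferon-induced genes outside the list went both ways in WT 3. Ifitm3 and Slfn4 were highest there, at 18.1 CPM against 2.78 to 6.20 and at 34.5 against 2.91 to 7.05. Others were lowest there, among them Ifi203, Ifi209 (269 against 291 to 393) and Slfn2 (315 against 360 to 444). The neutrophil, red cell and macrophage or monocyte markers given above were raised in the same library, and their part in these values was not tested. Mx1, a dynamin-like GTPase that blocks virus replication, was not part of the pattern, with 31.4, 29.0 and 23.6 CPM against 28.7, 33.2 and 23.6. Bst2 (tetherin) read 43.3, 43.5 and 39.7 CPM against 39.8, 49.1 and 37.4. Oas2, an activator of RNase L, read 9.96, 11.97 and 11.3 CPM against 10.6, 8.79 and 6.26, with a log2 fold change of -0.37 ± 0.19 and overlapping groups. Without KO 3 the value for Oas2 was -0.19, and without KO 1 it was -0.54.

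Of the 10 GTPases linked to IFN-γ, 8 had their highest value in KO 2, and Gbp5 and Gbp7 did not. Their median log2 fold change was 0.15, with 8 higher and 2 lower, and no member of the 10 reached an unadjusted p of 0.05 in edgeR or separated the groups. In DESeq2 Tgtp2 had an unadjusted p of 0.0343. Igtp (Irgm3) read 351, 331 and 361 CPM with WT Tconv and 389, 541 and 342 with HP1α KO Tconv. Tgtp1 read 99.3, 86.2 and 112 CPM against 110, 179 and 90.2, and Tgtp2 read 230, 217 and 234 against 263, 336 and 230. In each of them KO 2 was the highest library and KO 3 lay within the WT range. Tgtp1 and Tgtp2 share 99.8% of 2811 transcript bases, so reads can pass from one to the other in the estimated counts.

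Irgm1, the regulator that keeps the effector IRG proteins off host membranes, read 154, 145 and 159 CPM against 157, 209 and 137. Gbp2 read 198, 195 and 212 CPM against 214, 272 and 196, and Gbp7 read 488, 505 and 477 against 467, 447 and 479. KO 2 thus had the highest Irgm1 and Gbp2 but the lowest Gbp7. KO 2 exceeded the median of the other 5 libraries by 1.80-fold for Tgtp1, 1.58-fold for Iigp1, 1.54-fold for Igtp, 1.46-fold for Tgtp2, 1.37-fold for Gbp2 and 1.36-fold for Irgm1, and it held the highest value of 8 of these 10 genes. Zbp1, outside the GTPases, exceeded it by 2.00-fold. In the same library Isg15, Oasl2, Rsad2, Cmpk2, Oas3 and Eif2ak2 were at their lowest. Leaving out KO 2 brought the median log2 fold change of the 10 GTPases from 0.15 to 0.02 and that of all 50 members from 0.03 to -0.02, with 23 members then higher and 27 lower. The Treg markers of that library, some at their lowest and Tnfrsf18 at its highest, are given above, and their part in these values was not tested.

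**Figure D4:**
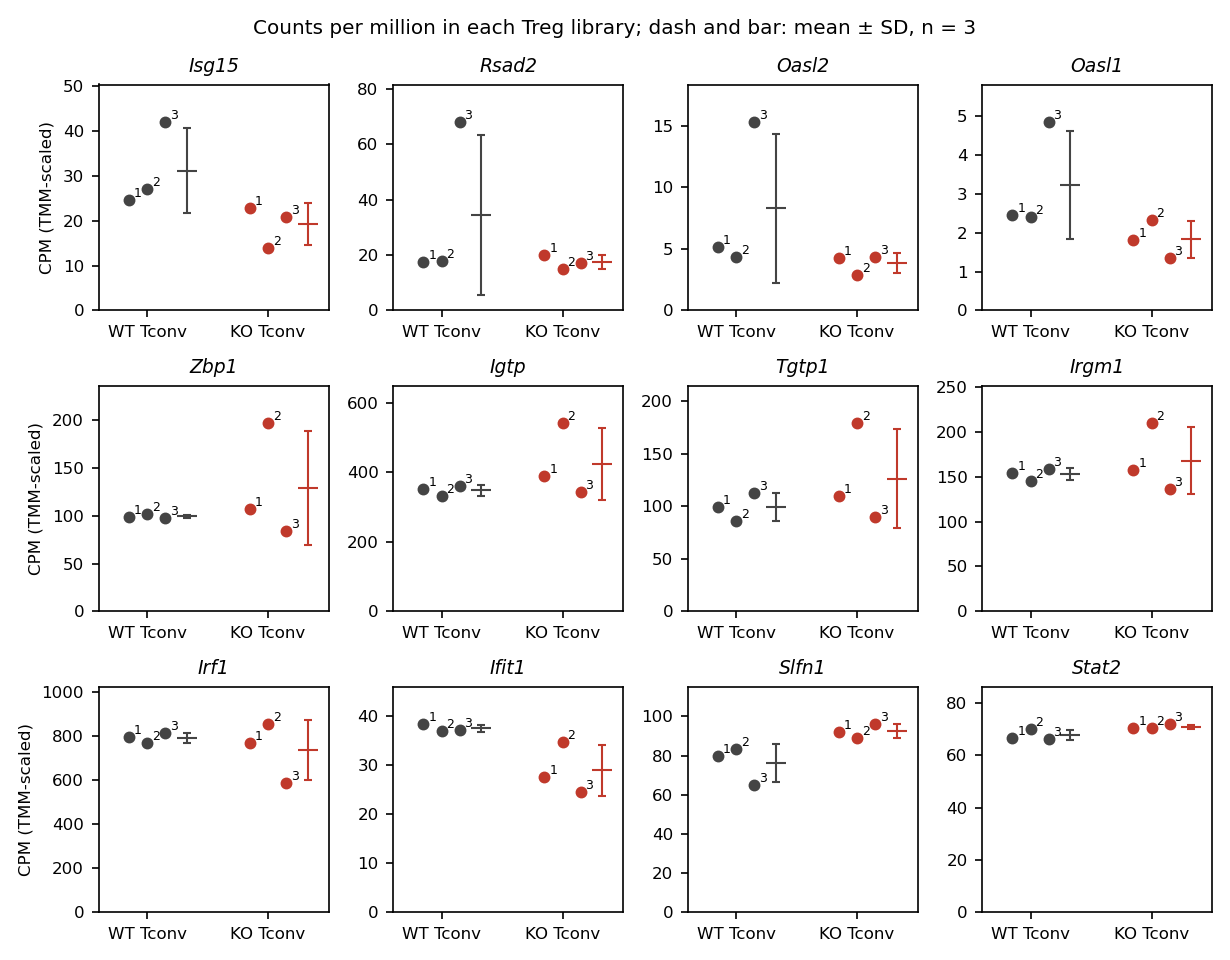
CPM of 12 members in each library, on axes that start at 0; numbers beside points are replicate numbers, and the dash with its bar is the mean ± SD of 3 libraries. Points of WT 3 stand alone for Rsad2, Oasl2 and Oasl1 (68.0, 15.3 and 4.85 CPM), and points of KO 2 for Zbp1, Igtp, Tgtp1 and Irgm1 (197, 541, 179 and 209 CPM).

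Slfn1, a Schlafen protein known for slowing T cell growth, was the member with the lowest p among those higher with HP1α KO Tconv. It read 79.7, 83.5 and 65.3 CPM against 92.0, 89.0 and 96.1, so that every KO library was above every WT library and WT 3 was the lowest. The log2 fold change was 0.28 ± 0.10, with an edgeR p of 0.0201 and an adjusted p of 0.262. Without WT 3, the library with raised neutrophil and red cell markers, it was 0.18. Slfn5 and Slfn8 had log2 fold changes of 0.16 and 0.15 with overlapping groups, and were also lowest in WT 3. Phf11b, a PHD-finger protein, read 90.5, 105 and 87.7 CPM against 118.7, 114 and 102, with a log2 fold change of 0.24 ± 0.09, an edgeR p of 0.0296 and an adjusted p of 0.292. Only KO 3 fell below the highest WT library. Its transcript is 97.0% identical to that of Phf11a over 866 bases. Epsti1 read 147, 152 and 136 CPM against 152, 175 and 158, and Ifi27l2a read 530, 570 and 433 against 546, 636 and 480, both overlapping. The 21 members not given library by library had log2 fold changes between -0.40 (Ifi44) and 0.28 (Iigp1), and none of them separated the groups.

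The surrounding pathway was read from a list of 94 further interferon gene symbols, of which 92 were in the table and 87 were tested. The list named the same gene as both Rigi and Ddx58, and the table held it as Ddx58. Of the ligands, Ifng was present in the Treg libraries at 32.2 to 47.8 CPM with overlapping groups, and Ifnb1, Ifna4 and Ifnk did not exceed 0.0416 CPM in any library. Of the receptors, Ifnar2 read 57.0, 57.4 and 56.8 CPM with WT Tconv and 65.5, 67.7 and 72.7 with HP1α KO Tconv. Its difference was 0.27 ± 0.07 on the log2 scale, and edgeR gave an adjusted p of 0.209. Ifnar1, the other chain, had a log2 fold change of -0.01, and Ifngr1 and Ifngr2 had -0.08 and -0.22. The inhibitors Socs1, Socs3, Pias1, Ptpn2 and Ptpn6 lay between -0.21 and 0.09.

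No gene of this further list passed an adjusted p of 0.05 in edgeR, and 12 had an unadjusted p under 0.05, of which 10 were higher with HP1α KO Tconv, where the shares of all genes were 14.5% in total and 6.98% higher. Groups did not overlap for 15 genes that were higher and 3 that were lower, against 11.5% and 11.6% of all genes. DESeq2 called 6 of the 83 genes it gave an adjusted p, all higher with HP1α KO Tconv, where 1.31% of all genes were called in that direction. They were Il10rb, a receptor chain shared with IL-10, the factor Irf3, the GTPases Irgm2 and Gbp2b, Phf11a and Tor3a, with edgeR log2 fold changes of 0.30, 0.28, 0.30, 0.78, 0.48 and 0.50. Gbp2b read 6.83, 10.9 and 10.3 CPM against 15.7, 18.7 and 13.6, and Irgm2 read 96.2, 88.0 and 93.6 against 115, 114 and 113. In contrast to Igtp and Tgtp1, these 2 GTPases were higher in all 3 KO libraries. The count of 6 depended on single libraries, being 1 without WT 3, 3 without WT 1, 5 without WT 2 or KO 3, 6 without KO 1 and 12 without KO 2, while the share of all genes that DESeq2 called ran from 1.23% without WT 3 to 11.3% without KO 2.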

How the data were processed

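Total RNA of sorted Treg was sequenced from stranded libraries. Per the labels, the authors aligned reads with STAR and quantified genes with Salmon on GRCm39; the deposited table gives whole-number estimated counts without any scaling, and these were used unrounded. Salmon shares ambiguous reads between near-identical genes by a model.

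All 29199 genes entered edgeR 4.0.16 (R 4.3.3). Genes with low counts were removed by filterByExpr, libraries were scaled by TMM, and groups were compared by the quasi-likelihood test with robust fitting, with Benjamini-Hochberg adjustment over 18321 genes. CPM used TMM-scaled library sizes, log2 CPM a prior count of 2, and levels per kb the exon union of GENCODE M39. DESeq2 1.42.0 results, other scalings, filters, prior counts, a replicate block and single libraries left out served as alternatives. The fitting script was tested on simulated data.

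The members and lists were chosen with earlier results of these data known. Members given library by library were a list ordered by role plus the 5 with the smallest p in each direction; the others are summarised. Near-identity was taken from transcript alignments of at least 95% identity over 300 bases. Replicate libraries differed beyond counting error and each counted as 1 sample.

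One gene of the further pathway list is counted in its totals but is not reported here by value.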

Additional observations from a re-analysis of the deposited data

How the results depend on the processing

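Under DESeq2, 1 member passed an adjusted p of 0.05, it was 1 lower and 0 higher, where 4.35% of all genes were called. Of the further pathway list 6 genes passed, all higher, where 1.31% of all genes were called in that direction. Without KO 2, DESeq2 called 2 other members, Ifit1 and Ifih1, both lower, among 1413 genes in all, without KO 1 it called Isg15, and with any other library left out it called 0 members. With libraries scaled by total counts alone, 11 members had groups that did not overlap (22%, against 23.9% of all genes). With single libraries left out, that number ran from 8 (16%, against 32.4% of all genes without WT 3) to 18 (36%, against 30.3% without KO 3), and the number of members with an unadjusted p under 0.05 ran from 2 (4%, against 11.2% of all genes) without WT 3 to 7 (14%, against 10.4%) without KO 3. Leaving out WT 3 and KO 2 together, an alternative chosen after seeing the data, left 23 members (46%) with groups of 2 that did not overlap, against 51.1% of all genes, and 8 with an unadjusted p under 0.05, where 18.2% of all genes had one. None passed in edgeR. No edgeR alternative called any of the 29 genes given library by library, the lowest adjusted p being 0.0542. Of these 29, 17 kept the sign of their log2 fold change in every alternative.

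The other 12 changed sign in at least 1 alternative, and the cause was not tested. Eif2ak2 changed from 0.00061 to -0.0025 with DESeq2, -0.0033 with RLE size factors and -0.0034 with a minimum of 10 counts, and scaling by total counts, which moved the median of all genes from -0.0085 to 0.029, gave 0.024 for Dhx58 and 0.036 for Bst2. With single libraries left out, log2 fold changes ran from -0.13 to 0.076 for Bst2, -0.090 to 0.046 for Dhx58, -0.035 to 0.073 for Eif2ak2, -0.26 to 0.030 for Ifit3, -0.26 to 0.13 for Ifit3b, -0.23 to 0.035 for Irf1, -0.0012 to 0.095 for Irf7, -0.056 to 0.26 for Irgm1, -0.098 to 0.15 for Mx1 and -0.055 to 0.62 for Zbp1. Without WT 3 and KO 2 together they were -0.099 for Ifi27l2a, -0.0038 for Irf7, -0.027 for Irgm1, -0.21 for Mx1, 0.077 for Rsad2 and -0.063 for Zbp1.

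Deviations of same-numbered libraries from their group means correlated at -0.04, 0.18 and 0.12 for numbers 1 to 3. WT 1 and WT 2 both correlated best with KO 2, and WT 3 about equally with KO 1 (0.121) and KO 3 (0.117). With means of 3 libraries per group, these values cannot decide whether the replicate numbers pair the samples. With the replicate block the median log2 fold change of the members was 0.03, 5 members (10%) had an unadjusted p under 0.05, against 11.4% of all genes, and 0 passed the adjusted threshold. With lengths of the longest transcript, 9 of the 10 highest members per length stayed in the highest 10, in another order, with Samhd1 moving from place 8 to 3. Every member had at least 120 counts in every library.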
